A study of Cladosporium europaeum with 50 samples.

Results

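Genes of several routes of protein breakdown were among those that changed when Cladosporium europaeum strain F32 was grown with polychlorinated biphenyls (PCB). The genes were chosen by words in the annotation that the authors gave to their listed genes: peptidase, protease, proteasome, ubiquitin, F-box, BTB, RING as a whole word, HECT or cullin, leaving out glutathione and transcription factor entries. Of 705 listed annotated genes, 39 carried such a word. The word ring also matched 2 intradiol ring-cleavage dioxygenases (ptg000021l.252 and ptg000008l.232), enzymes that open catechol rings and take no part in protein breakdown, and these were set aside, which left 37 genes. By annotation, 7 of the 37 are peptidases of families that fungi often secrete and 6 are other peptidases. A further 23 belong to the ubiquitin and proteasome side, and 1 gene carries both a BTB and a peptidase A1 annotation. The ubiquitin and proteasome side follows annotation words and is not limited to degradation. It also holds 3 ubiquitin-like protease genes and Peroxin-10, described below. Identifiers hold the contig, a point and the number of the gene on it; a genome was not used.

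Strain F32, isolated from a soil with a history of PCB pollution, was grown in liquid mineral medium with 5 g/L glucose, either without PCB or with 6 mg/L of PCB52, PCB101, PCB153 or PCB180, which are a tetra-, penta-, hexa- and heptachlorobiphenyl. Polyadenylated RNA of mycelium was sequenced after 24 h and after 96 h in 10 groups of 5 replicates, 50 samples in all. All groups, controls included, had glucose, and all come from a single strain. The values come from tables in which the authors compared each congener with the control of its hour, keeping genes whose log2 fold change was 1 or more in size and whose adjusted p was under 0.05. "Rose" and "fell" mean listed in this way. Each of the 37 genes was therefore listed at least once by construction, and genes with the same annotation words that were not listed are not analysed here. A gene missing from a comparison is not shown to be unchanged in it. Depth per sample is unknown. The labels leave out whether replicates were separate cultures, and p-values then reflect only the spread between these samples, which may be technical. In RNA from whole mycelium, fewer cells of a kind and less RNA per cell cannot be told apart.

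Fungi secrete peptidases to cut proteins outside the cell and take up the products, and carry related peptidases in the vacuole. Inside the cell, ubiquitin is attached to a target by an E3 ligase, and the proteasome then degrades many of the tagged proteins. F-box proteins and many BTB proteins are adaptors that bring targets to ligases built on a cullin scaffold. RING and RBR domains are parts of ligases. Filamentous fungi usually carry many F-box genes, most of which have no assigned target.

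Genes of protein breakdown were listed for PCB153 and PCB180 at 96 h. None of the 37 was listed for PCB52, PCB153 or PCB180 at 24 h, nor for PCB52 or PCB101 at 96 h, and no rows for PCB101 at 24 h were used here. In those comparisons the lists were short, with 0.00884% of genes tested listed for PCB52 at 24 h, 0.053% for PCB153 and 0.0177% for PCB180, and at 96 h 0.00884% for PCB52 and 0.0796% for PCB101. Under PCB153 at 96 h, 10 of the genes were listed, 6 that rose and 4 that fell, against a background of 2.4% of 10874 genes tested that were listed, 1.82% that rose and 0.579% that fell. Under PCB180 at 96 h, 33 were listed, 19 that rose and 14 that fell, where 7.26% of 11313 genes tested were listed, 4.59% that rose and 2.67% that fell. Since every gene was taken from the lists, the fair reference for direction is the listed annotated genes, of which 73.7% of 194 rose under PCB153 and 57.1% of 620 rose under PCB180. The share of the genes that rose was 60% under PCB153 and 57.6% under PCB180. The share under PCB180 is near that reference and is no result about these genes as a whole. The share under PCB153 rests on 10 genes, too few to set against the reference, and is no result either. Their median log2 fold change was 1.21 under PCB153 and 1.06 under PCB180, beside 1.36 and 1.12 over the listed annotated genes of the same comparisons. Such medians depend on the listing threshold and on how many genes rose. The 2 comparisons share the 96 h control samples, so they are not independent.

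**Figure D1:**
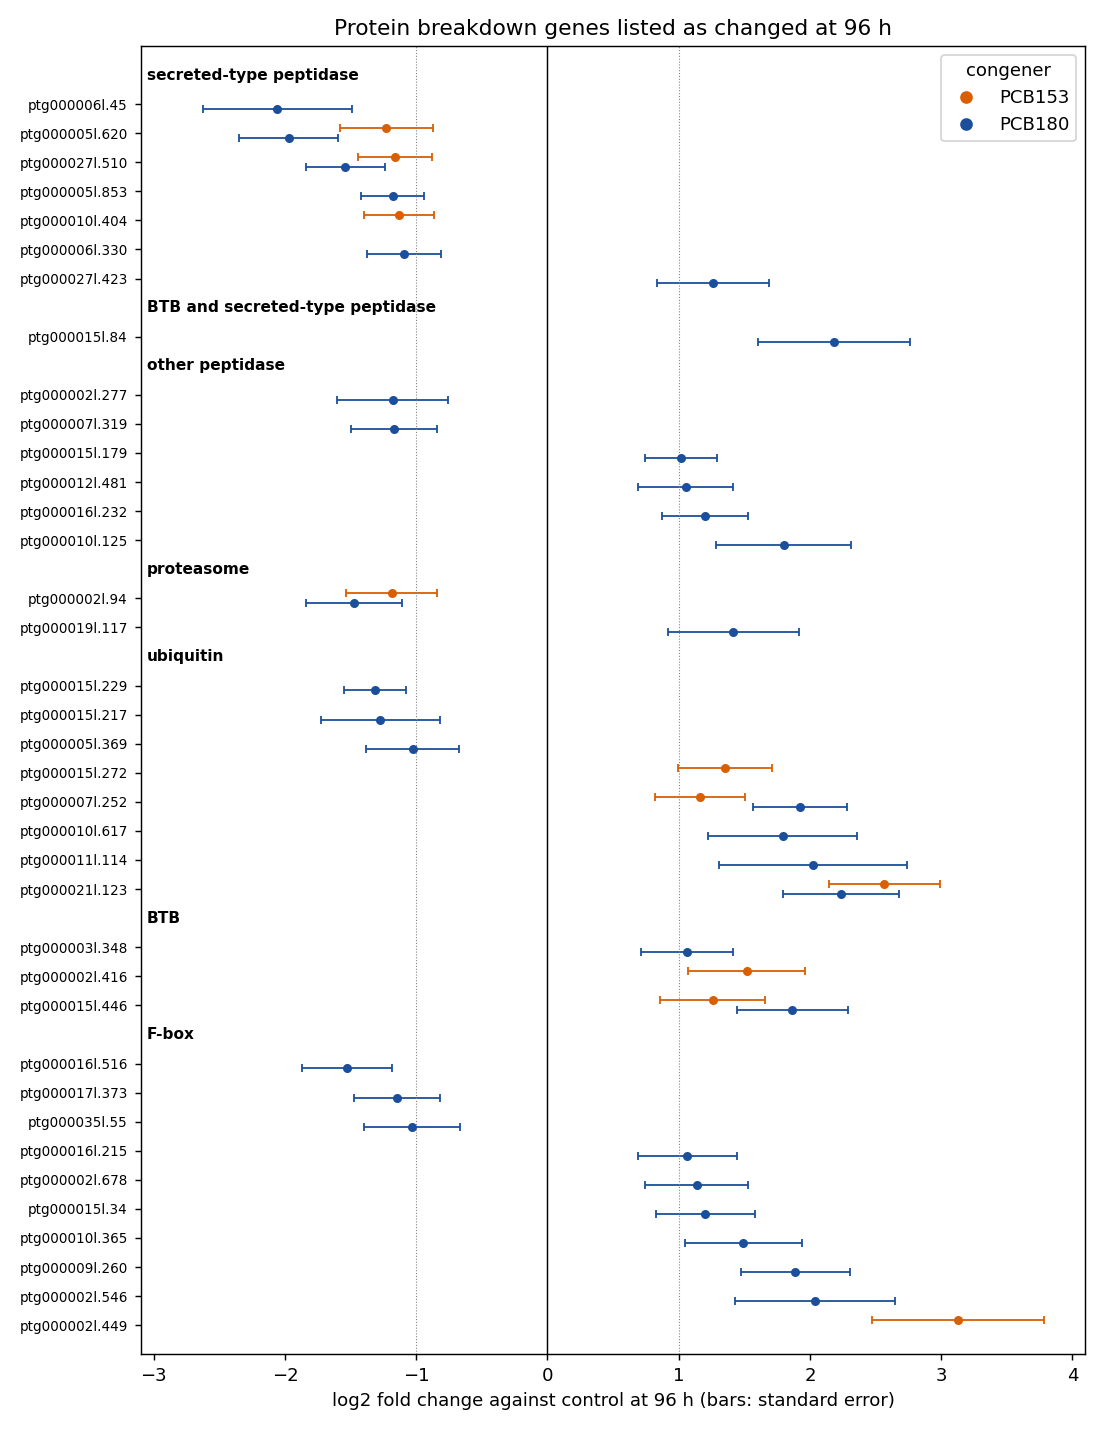
Log2 fold change against the 96 h control (horizontal axis) of the 37 genes, in classes by annotation, for PCB153 (orange) and PCB180 (blue); points are the authors' values, bars their standard errors, dotted lines mark 1 and -1, and a missing point means that the gene was not listed. Most secreted-type peptidases lie left of 0, most F-box, BTB and ubiquitin genes right of it, and the proteasome genes on both sides. Of listed annotated genes, 73.7% rose under PCB153 and 57.1% under PCB180. The farthest point is the F-box gene ptg000002l.449 at 3.13 under PCB153.

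Secreted-type peptidases were mostly on the falling side in counts, and the ubiquitin and proteasome side was nearer the listed annotated genes. Among secreted-type peptidases, 3 fell and 0 rose under PCB153, and 5 fell and 1 rose under PCB180. Their median log2 fold change was -1.16 under PCB153 and -1.36 under PCB180. On the ubiquitin and proteasome side 6 rose and 1 fell under PCB153, with a median of 1.35, and 13 rose and 7 fell under PCB180, with a median of 1.17. The shares that rose were thus 85.7% and 65%, beside 73.7% and 57.1% of the listed annotated genes. With so few genes these shares are near the reference and are no result about the ubiquitin and proteasome side. No test of these splits was made, since the members were chosen with results in view, and the counts are small. The medians of these sides largely follow the counts of direction, because only values of 1 or more in size were listed. Without genes in the lowest 25% of mean normalized count (77.5 or less), the ubiquitin and proteasome side under PCB180 had 7 that rose and 7 that fell, beside 51.6% that rose among 516 listed annotated genes, whereas the secreted-type peptidases had 0 that rose and 5 that fell.

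**Figure D2:**
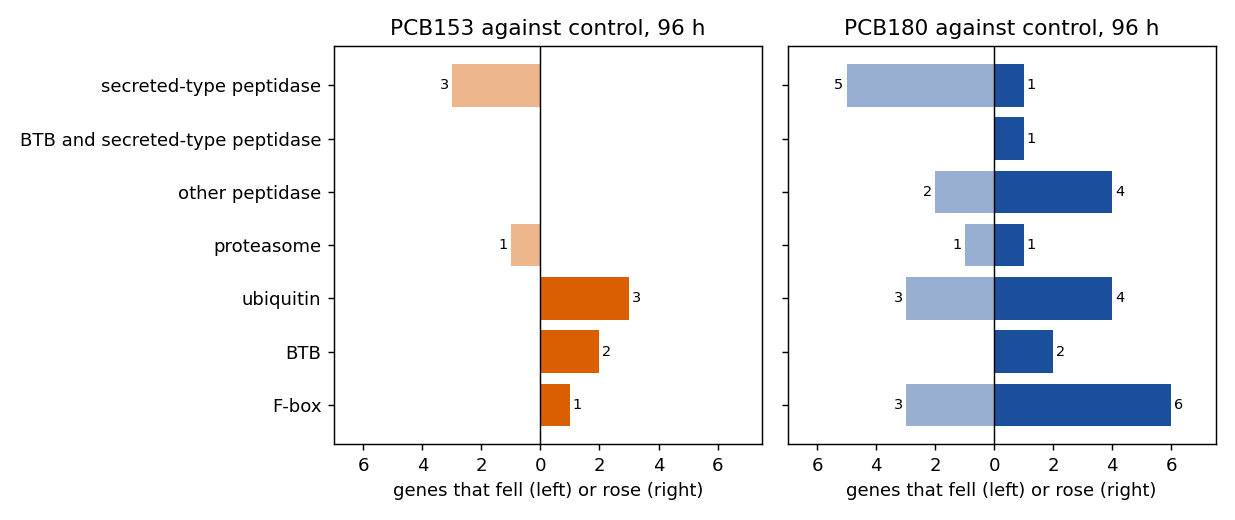
Number of genes that fell (left, pale) or rose (right, dark) in each class under PCB153 and under PCB180 against the 96 h control. Secreted-type peptidases fell 3 to 0 and 5 to 1, and F-box genes split 1 to 0 and 6 to 3 with the rises first, the latter 66.7% beside 57.1% of all listed annotated genes.

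Serine carboxypeptidases, which remove residues from the C-terminus of proteins and in fungi act outside the cell or in the vacuole, were on the falling side, 1 under both congeners and 1 under PCB180. These are too few to set against the 26.3% and 42.9% of listed annotated genes that fell under PCB153 and PCB180. Changes below are log2 fold changes with their standard error. Carboxypeptidase ptg000005l.620 had a log2 fold change of -1.23 ± 0.36 (standard error) under PCB153 with 0.0268 as adjusted p in the authors' deposited table. Under PCB180 it was at -1.97 ± 0.38, a 3.92-fold fall with 3.87e-05 as adjusted p in the authors' deposited table. It was the sixteenth largest fall of the 302 under PCB180, and its mean normalized count was 1570. A further carboxypeptidase (ptg000005l.853) on the same contig fell by 1.18 ± 0.24 on the log2 scale under PCB180 alone among the lists, with 0.000107 as adjusted p in the authors' deposited table. Its standard error was among the smaller ones, below the median of 0.39 over listed annotated genes.

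The S28 family, serine peptidases that cut after proline, gave 2 members, both on the falling side. Serine carboxypeptidase S28 (ptg000027l.510) fell by 1.16 ± 0.28 on the log2 scale under PCB153, with 0.00534 as adjusted p in the authors' deposited table. Under PCB180 it fell by 1.54 ± 0.30, with 5.03e-05 as adjusted p, again from the authors' deposited table. Peptidase S28 ptg000006l.330 was listed under PCB180 only, at a log2 fold change of -1.09 ± 0.28 and 0.00453 as adjusted p in the authors' deposited table. No S28 gene was on the rising side of either list. Of listed annotated genes, 26.3% fell under PCB153 and 42.9% under PCB180, so 2 genes are no result about this family.

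Aspartic peptidases of the A1 family, which resemble pepsin and work best in acid, stood on both sides. The gene ptg000006l.45 had the largest fall of any peptidase, -2.06 ± 0.56 under PCB180 with 0.00783 as adjusted p in the authors' deposited table. That is a 4.16-fold fall with a 95% interval of the log2 fold change from -3.16 to -0.95, and its mean normalized count of 4294 was the highest among peptidases. The gene with both a peptidase A1 and a BTB annotation (ptg000015l.84) rose by 2.18 ± 0.58 under PCB180, with 0.00585 as adjusted p in the authors' deposited table. Its annotations name domains of opposite sides, and whether 1 transcript carries both was not tested, so it was counted on neither side.

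The remaining secreted-type peptidases were listed for 1 congener each, in opposite directions. A protein with a peptidase S33 tripeptidyl aminopeptidase-like C-terminal domain (ptg000010l.404) was listed for PCB153 only, at -1.13 ± 0.27 and 0.00398 as adjusted p in the authors' deposited table. A peptidase S8/S53 protein (ptg000027l.423), of the subtilisin and sedolisin families, was the single secreted-type peptidase that rose, by 1.26 ± 0.43 under PCB180 with 0.0378 as adjusted p in the authors' deposited table. It rested on a mean normalized count of 57.8, the lowest of the class.

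Among the other peptidases, a pair of genes whose relatives serve protein quality control in mitochondria fell under PCB180. Metalloendopeptidase OMA1 (ptg000007l.319), an inner membrane peptidase that in yeast and mammals responds to loss of membrane potential, fell by 1.17 ± 0.33 on the log2 scale with 0.00976 as adjusted p in the authors' deposited table. The ATP-binding subunit ClpX of the Clp protease (ptg000002l.277), which unfolds proteins for the Clp peptidase, fell by 1.18 ± 0.42 at an adjusted p of 0.0494, close to the threshold, in the authors' deposited table. The other 4 of this class rose. They were a protein with a peptidase M20 dimerisation domain (ptg000010l.125, 1.80 ± 0.52), signal peptide peptidase (ptg000016l.232, 1.20 ± 0.33), which cuts leftover signal peptides in the membrane of the endoplasmic reticulum, and a pair of M14 domain proteins (ptg000012l.481, 1.05 ± 0.36, and ptg000015l.179, 1.02 ± 0.27), all on the log2 scale of the authors' deposited table. The M14 family holds metallocarboxypeptidases, which also take residues from the C-terminus, so carboxypeptidase families stood on both sides, with the serine type falling and the M14 proteins rising. Counting the M14 proteins as secreted-type, which was decided after the values were seen, gave 3 that rose and 5 that fell under PCB180.

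F-box genes were the most numerous class, with 10. The largest change of any of the 37 genes was in F-box gene ptg000002l.449, which rose 8.74-fold under PCB153, a log2 fold change of 3.13 ± 0.65 with 0.000508 as adjusted p in the authors' deposited table. It was the sixth largest of the 198 rises under PCB153 and was not among the PCB180 genes. Its mean normalized count of 8687 was the highest of the 37. The other 9 F-box genes were listed for PCB180 only. Of these, 6 rose in the authors' deposited table, by log2 fold changes of 2.04 ± 0.61 (ptg000002l.546), 1.89 ± 0.42 (ptg000009l.260), 1.49 ± 0.44 (ptg000010l.365), 1.20 ± 0.38 (ptg000015l.34), 1.14 ± 0.39 (ptg000002l.678) and 1.07 ± 0.38 (ptg000016l.215). The 3 that fell were ptg000016l.516 at -1.53 ± 0.34, ptg000017l.373 at -1.15 ± 0.32 and ptg000035l.55 at -1.03 ± 0.37, in the authors' deposited table.

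The read support of these F-box genes differed with direction. Of the 6 that rose under PCB180, 3 had a mean normalized count of 30.0 or less, with ptg000016l.215 at 12.3, and ptg000002l.546 stood apart at 5288. The 3 that fell had 904, 1371 and 8409. Without the lowest 25% of mean counts, 3 F-box genes rose and 3 fell under PCB180, and the full split of 6 to 3 is near that of the listed annotated genes. The adjusted p was 0.000552 for ptg000009l.260 and 0.000829 for ptg000016l.516 in the authors' deposited table, and between 0.0101 and 0.0484 for the other 7, so that only 2 of the 9 pass 0.01. One of the F-box genes, ptg000002l.678, also carries an ankyrin repeat annotation, a repeat that binds other proteins.

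All 3 genes annotated by a BTB domain alone rose. Of listed annotated genes, 73.7% rose under PCB153 and 57.1% under PCB180, so 3 rises are no result about this class. The BTB gene ptg000015l.446 rose by 1.26 ± 0.40 under PCB153, with 0.0498 as adjusted p in the authors' deposited table. Under PCB180 it rose by 1.87 ± 0.42 at an adjusted p of 0.000939 by the authors' deposited table. The others were listed once each in the authors' deposited table, ptg000002l.416 at 1.52 ± 0.45 under PCB153 and ptg000003l.348 at 1.06 ± 0.35 under PCB180.

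Ubiquitin ligases held the most strongly supported rises. The RBR-type E3 ubiquitin transferase ptg000021l.123, of the ligase type that passes ubiquitin through its own cysteine, rose 5.93-fold under PCB153, a log2 fold change of 2.57 ± 0.42 with 1.9e-06 as adjusted p in the authors' deposited table. Its p-value was the sixth smallest of the 261 genes listed for PCB153. Under PCB180 it rose by 2.24 ± 0.44 with 7.95e-05 as adjusted p in the authors' deposited table, the largest rise of the 37 genes for that congener. The gene rests on a mean normalized count of 34.5, a low value. A RING-type domain protein (ptg000007l.252, mean normalized count 59.9) rose by 1.16 ± 0.35 under PCB153, with 0.0303 as adjusted p in the authors' deposited table. The same protein rose by 1.92 ± 0.36 under PCB180, at an adjusted p of 2.68e-05, the smallest of any gene on this side that rose for that congener in the authors' deposited table.

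Other genes with a ligase or RING annotation were listed for PCB180 only and went in both directions. An E3 ubiquitin-protein ligase (ptg000010l.617) rose by 1.79 ± 0.57 at an adjusted p of 0.0241 and a mean normalized count of 5317 in the authors' deposited table. A RING-type protein (ptg000005l.369) fell by 1.03 ± 0.35 on the log2 scale with 0.0408 as adjusted p in the authors' deposited table. The ubiquitin transferase annotated as Peroxin-10 (ptg000015l.217) fell by 1.27 ± 0.45 with 0.049 as adjusted p in the authors' deposited table. Peroxin-10 is part of the peroxisomal ligase that recycles the import receptor, so its role is in protein import into peroxisomes rather than in degradation.

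Genes with a ubiquitin-like protease domain, whose best known members in yeast remove the modifier SUMO from proteins, split as well. The strongest was ptg000015l.229, which fell by 1.31 ± 0.23 under PCB180 with 7.07e-06 as adjusted p in the authors' deposited table, the smallest adjusted p of the 37 genes for that congener. The gene ptg000011l.114, annotated also as a cysteine proteinase, rose by 2.02 ± 0.72 under PCB180 at an adjusted p of 0.0486, and ptg000015l.272 by 1.35 ± 0.36 under PCB153 with 0.0131 as adjusted p in the authors' deposited table. The first of these rises has a mean normalized count of 32.4 and the widest standard error of the 37 genes.

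The proteasome itself was represented by 2 genes that moved in opposite directions. Proteasome assembly chaperone 3 (ptg000002l.94), which in yeast helps build the ring of the core particle, fell by 1.19 ± 0.34 on the log2 scale under PCB153, with 0.0268 as adjusted p in the authors' deposited table. Under PCB180 it fell by 1.47 ± 0.37 at an adjusted p of 0.00305 by the authors' deposited table. A subunit of the regulatory particle (ptg000019l.117), the cap that takes up tagged proteins, rose under PCB180 by 1.42 ± 0.50 with 0.0469 as adjusted p in the authors' deposited table. No gene annotated as a subunit of the core particle, and none with the words HECT or cullin, was among the listed genes.

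**Figure D3:**
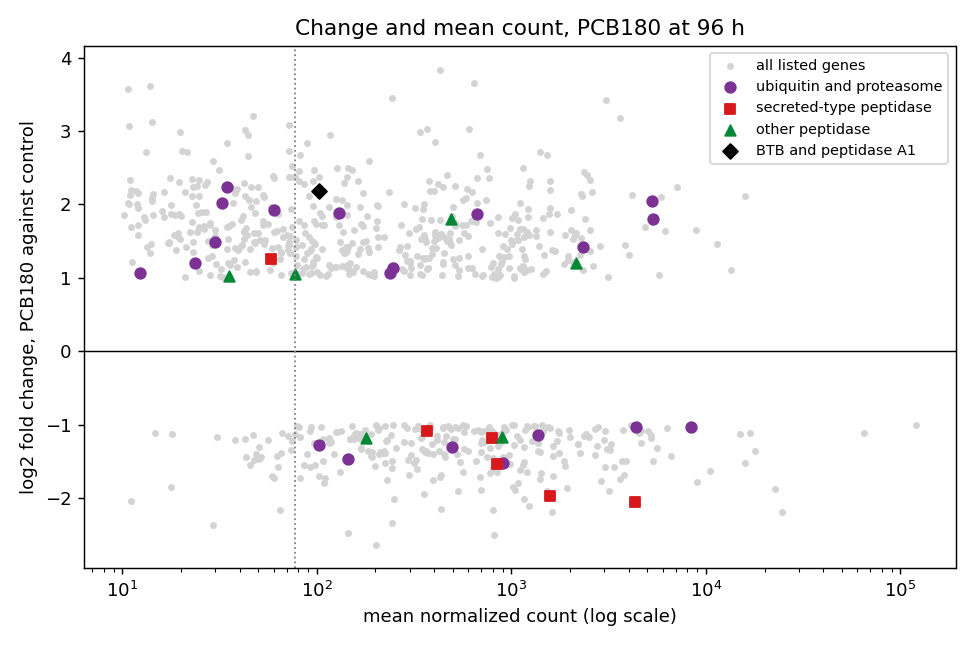
Mean normalized count (horizontal, log scale) and log2 fold change under PCB180 at 96 h (vertical) for all 821 listed genes (grey) and for the 33 listed genes of protein breakdown by side; the dotted line marks the lowest 25%, 77.5. The protein breakdown genes that fell lie right of the line, from 103 upwards, whereas 9 of the 19 that rose lie at or left of it.

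Among genes listed for PCB180, mean normalized counts differed between the directions. Each gene has 1 mean count, the same in every comparison, so it is no measure of the PCB180 samples alone. The median mean count was 102 for the 19 genes that rose and 869 for the 14 that fell. Over the 620 listed annotated genes it was 277 for those that rose and 691 for those that fell, so that the listed genes at large show the same order. The part of read depth in these counts of direction was not tested. Without the lowest 25% of mean counts, 10 of the genes rose and 14 fell under PCB180, and 4 rose and 4 fell under PCB153.

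PCB180 carries a further chlorine atom compared with PCB153, and 6 of the genes were listed for both at the same dose and hour, which allowed their difference to be tested. The 2 comparisons share a control, and a correlation of 0.5 between them was assumed. The difference (PCB180 minus PCB153, log2) was 0.76, with a 95% interval from 0.07 to 1.46, for RING gene ptg000007l.252 and -0.74, from -1.46 to -0.02, for carboxypeptidase ptg000005l.620. For BTB gene ptg000015l.446 it was 0.61 (-0.20 to 1.42), and for S28 carboxypeptidase ptg000027l.510 it was -0.38 (-0.95 to 0.19). For RBR ligase ptg000021l.123 it was -0.33 (-1.18 to 0.52) and for proteasome assembly chaperone ptg000002l.94 it was -0.29 (-0.99 to 0.41). By a two-sided normal test with Benjamini-Hochberg adjustment over the 171 genes listed for both congeners, 0 of the 6 differences were called, with adjusted p from 0.379 to 0.997, and 2 of the 6 had an unadjusted p under 0.05 (0.031 and 0.0427). Over all 171 genes, 0% were called and 18 had an unadjusted p under 0.05. The intervals leave room for differences of about the size of the listing threshold, so they do not show that the congeners act alike. The 6 genes are 16.2% of the 37, near the 18.6% of all 920 listed genes that were listed for both, so their number is nothing particular to these genes. For the 31 genes listed for 1 congener only, this test had no pair of values. Since both values of a tested gene had to pass the listing thresholds, the selection favours genes that changed alike. The test therefore cannot decide how far the congeners differ over the genes of protein breakdown. The authors' deposited table also holds their direct comparison of PCB180 with PCB153 at 96 h, which lists 1 gene, and it is none of the 37.

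**Figure D4:**
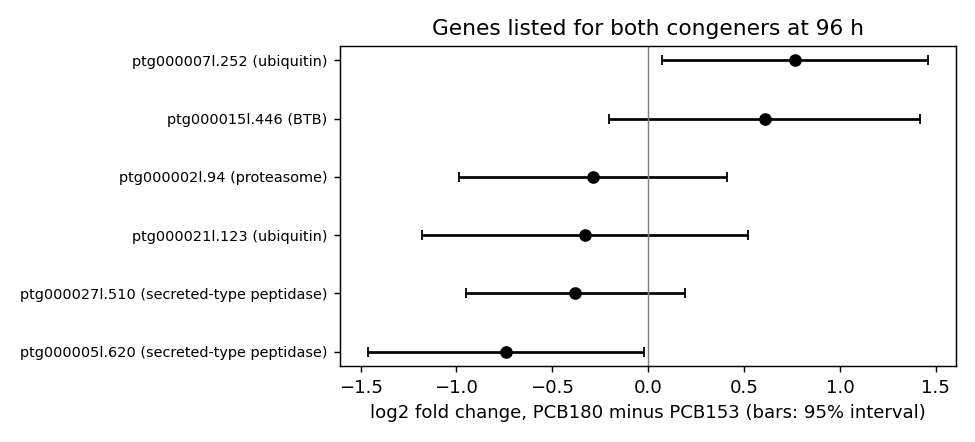
Difference of log2 fold changes, PCB180 minus PCB153 (horizontal axis), with 95% intervals for the 6 genes listed for both congeners at 96 h. The intervals of ptg000007l.252 and ptg000005l.620 leave out 0 before adjustment, and the other 4 include it.

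Genes of neighbouring functions (autophagy and vacuole, ubiquitin-like systems, chaperones, uptake of peptides and amino acids) were counted from 4 lists of annotation words, which also take in genes with no role in protein breakdown. The autophagy and vacuole list had 1 gene that rose and 6 that fell under PCB180, where 42.9% of listed annotated genes fell, and 0 that rose and 1 that fell under PCB153. Sterol 3-beta-glucosyltransferase (ptg000005l.85), annotated as autophagy-related protein 26, fell by 1.94 ± 0.42 under PCB180 in the authors' deposited table, where a vacuolar calcium ion transporter (ptg000017l.223) fell by 1.39 ± 0.29. The V-ATPase assembly protein vma21 (ptg000009l.354), needed to build the pump that acidifies the vacuole, rose by 1.28 ± 0.40 in the authors' deposited table. Most of this list are genes of membrane traffic and transport, and the list is therefore no measure of protein breakdown in the vacuole.

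The list of ubiquitin-like systems and adaptors had 1 gene that rose and 3 that fell under PCB180 and none under PCB153, too few to set against the 42.9% of listed annotated genes that fell under PCB180. The catalytic subunit of the NEDD8-activating enzyme (ptg000009l.525), which starts the modification that switches on cullin ligases, fell by 1.36 ± 0.38 on the log2 scale with 0.00975 as adjusted p in the authors' deposited table. A UBX domain protein (ptg000018l.74) fell by 1.17 ± 0.28 and a UBA domain protein (ptg000010l.21), a domain that binds ubiquitin, rose by 1.13 ± 0.27 in the authors' deposited table. Chaperones and heat shock proteins had 1 that rose and 3 that fell under PCB180 and 1 each way under PCB153, with the proteasome assembly chaperone counted in both. These are again only 4 and 2 genes, where 42.9% and 26.3% of listed annotated genes fell. The others with the largest changes under PCB180 in the authors' deposited table were an endoplasmic reticulum DnaJ protein (ptg000006l.77) at 1.99 ± 0.59 and a chitin synthase export chaperone (ptg000002l.429) at -1.27 ± 0.30. Under PCB153 the mitochondrial chaperone BCS1 (ptg000011l.102), which inserts a subunit of the respiratory chain, rose by 1.69 ± 0.46 in the authors' deposited table. In the list of peptide and amino acid uptake, an amino acid transporter (ptg000005l.832) rose under PCB153 in the authors' deposited table, by 1.10 ± 0.33, and no gene was listed for PCB180.

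Position along the contigs was compared among listed genes only, so clusters with unlisted genes of the same families were not tested. The 37 genes lay on 16 contigs, with 7 on ptg000015l and 6 on ptg000002l, where all 920 listed genes lay on 19 contigs. Listed genes per contig were not counted. None of the 37 had another of the 37 within 3 gene numbers. A directly adjacent gene number was listed for 6 of 37, which is 16.2%, beside 21.7% of all 920 listed genes. In each of the 6 cases the neighbours moved in the same direction in a comparison that listed both. That agreement was not computed for adjacent listed genes at large, so it is no result about these genes. The F-box gene ptg000002l.449 lies beside an unannotated gene (ptg000002l.450) that rose by 2.60 ± 0.63 under PCB153, and F-box gene ptg000009l.260 beside a major facilitator transporter (ptg000009l.261) that rose by 1.08 ± 0.28 under PCB180, in the authors' deposited table. The ubiquitin-like protease gene ptg000015l.229 lies beside a DUF221 gene (ptg000015l.228) that fell by 2.11 ± 0.34 under PCB180 in the authors' deposited table. The similar gene ptg000015l.272 lies beside a carboxymuconolactone decarboxylase-like gene (ptg000015l.273), which also rose under PCB153. BTB gene ptg000002l.416 neighbours a cytochrome c oxidase assembly factor (ptg000002l.417) at 1.71 ± 0.47 under PCB153, and carboxypeptidase ptg000027l.510 neighbours ptg000027l.511 at -1.03 ± 0.33 under PCB180, in the authors' deposited table. Whether reads of overlapping neighbours were kept apart in the counting is not given in the sources used here.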

How the data were processed

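Mycelial polyA RNA was extracted with TRIzol, per the labels' protocols. No aligner, counter, build or differential test program is given in these sources. The authors deposited comparisons, and values per sample were not used here. Per the file headers, the deposited tables give a log2 fold change with standard error (log2), a test statistic (a score), p-values before and after adjustment, and the mean normalized count, a signal without negative values. The mean normalized count of a gene is the same in every comparison. An annotated copy is rounded to 2 decimals. The score equals log2 fold change over standard error in all 1102 rows.

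The number of genes tested per comparison was found as the integer by which the ratio of p-value to adjusted p gives whole ranks (tolerance 0.0001). Every gene of the rule was named. Values of single genes are the authors'; fold changes and 95% intervals, by normal approximation, were computed from them. The difference test and the recovery were tested on simulated data. Classes came from family words in the annotation, not from signal peptides. The members and lists were chosen with earlier results of these data known. Alternatives were stricter thresholds, a filter on mean counts, other rule words, classes and correlations. Python 3.11.15, pandas 2.3.3, numpy 2.4.6 and scipy 1.17.1 were used.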

Additional observations from a re-analysis of the deposited data

How the results depend on the processing

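No paired analysis was possible because the files used hold comparisons and no values per replicate, so leaving out replicates was not run either.

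In what follows each pair of numbers gives genes that rose and fell. With an adjusted p under 0.01, the members came to 2 and 2 under PCB153 and 7 and 9 under PCB180, the ubiquitin and proteasome side to 2 and 0 and to 4 and 3, and secreted-type peptidases under PCB180 to 0 and 5. Under 0.001 the members were 2 and 0 and then 4 and 5, the ubiquitin side 2 and 0 and then 4 and 2, and the secreted-type peptidases 0 and 0 and then 0 and 3. With log2 fold changes of 1.5 or more in size the members were 3 and 0 and then 9 and 4, the ubiquitin side 3 and 0 and then 7 and 1, and the secreted-type peptidases 0 and 0 and then 0 and 3. At 2 these were 2 and 0 and then 4 and 1, 2 and 0 and then 3 and 0, and 0 and 0 and then 0 and 1. Leaving out low mean counts gave members 10 and 14, the ubiquitin side 7 and 7 and secreted-type peptidases 0 and 5 under PCB180. Without BTB and RING as words, 3 members rose under PCB153, all on the ubiquitin side, and 2 secreted-type peptidases rose under PCB180, as when the gene with both annotations was counted there. With all peptidases together 5 rose under PCB180, and with M14 included 3. Classing the S33 peptidase elsewhere and taking first annotations moved no count by over 1.5 times.

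In the other pathway lists under PCB180, autophagy and vacuole had 0 that rose at either stricter p, and 3 that fell under 0.001; at a fold change of 1.5 they had 0 and 1, and at 2 they had 0 and 0. Counts of the other lists that moved by over 1.5 times moved to 0. The difference test called 0 members at a correlation of 0, 0.3 or 0.7, over all pairs or without low mean counts (lowest adjusted p 0.0659, at a correlation of 0.7, at which 9 of all 171 genes did).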
